A study of Mus musculus with 14 samples.

Results

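The 43 genes described here carry out mitosis: cyclins and CDK1, the mitotic kinases and spindle checkpoint, the chromosomal passenger complex, the kinetochore, spindle motors, the cytokinesis machinery, and condensin with topoisomerase and separase. They were chosen by name for their function, with earlier results of these data known, and all 43 were found among the 54446 gene identifiers of the RNA-seq tables. The cells were mouse embryonic stem (ES) cells of the E14 line, grown without feeders in serum and LIF, either wild type (WT) or lacking *Tet1* and *Tet2* (*Tet1/2* DKO, a line made with Cas9 guides against both genes and sorted as single cells), TET1 and TET2 being enzymes that oxidize methylated cytosine. INK128, an inhibitor of the growth kinase mTOR (mTORi), puts ES cells into a paused state used as a model of embryonic diapause. WT cells were profiled without the inhibitor (0 h) and after 24 h, 72 h and 144 h in it, and DKO cells at 0 h, 24 h and 72 h, with 2 libraries of sorted cells per group and 14 in all. No other allele or agent is given for any group, and a DKO group at 144 h was not analysed here. The study speaks of biological replicates and of independent repeats of its experiments, the labels do not name the cultures behind the 2 libraries of a group, and the p-values measure only the spread between these libraries.

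Entry into mitosis is driven by CDK1 bound to cyclin B, which CDC25 phosphatases switch on. Aurora and Polo-like kinases then build the bipolar spindle, kinetochores attach chromosomes to its microtubules, and the spindle checkpoint holds back CDC20, the activator of the anaphase-promoting complex, until all are attached. Most of these genes are transcribed in a wave in G2 and M phase, through promoters with a CCAAT box bound by NF-Y and a cell cycle genes homology region (CHR, TTTGAA) bound by the DREAM and MYB-MuvB complexes. Mouse ES cells divide fast and express the group highly.

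Levels are given on 2 scales. Deposited TPM (transcripts in 1000000, a read density per length of transcript) sum to 1000000 in each library, so they give each gene's share of the transcripts. Spike-in normalized TPM are the deposited values times 1 factor per library, recovered from the study's normalized table, whose values the study describes as set against the ERCC RNA added to each sample. Read as described, this scale follows the amount of RNA relative to the spike-in, and in bulk samples fewer cells in mitosis and less RNA per cell cannot be told apart. Tests were made by limma on log2(TPM + 1) over 18232 genes in all 14 libraries, a gene was called at a Benjamini-Hochberg adjusted p under 0.05, log2 fold changes are on that log2(TPM + 1) scale with their standard error (SE), and all adjusted p-values below are from this fit.

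The factors ranged from 1 to 2.81. Each equaled 76 divided by a whole number (36 for both WT libraries at 0 h) to within 0.001. The reads of the spike-in were not used here, and whether the factors follow them was not tested. They went down with time in WT cells, from 2.11 and 2.11 at 0 h to 1.07 and 1 at 144 h, and they differed most within a group in the DKO 24 h libraries, at 2.24 and 1.36. *Tet2* was at 99.7 and 96.0 deposited TPM in WT and at 19.1 and 22.2 in DKO cells at 0 h (-2.19 ± 0.13, adjusted p = 9.87e-05). *Tet1* was at 197 and 191 and at 152 and 147, a level over the whole gene that does not separate the exons between the guides and so checks nothing. The 6 pluripotency markers (*Pou5f1*, *Sox2*, *Nanog*, *Zfp42*, *Esrrb*, *Klf4*) summed to 2193 to 2810.0 deposited TPM in every library, against 2.53 to 18.5 for 5 fibroblast markers.

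The promoters of the group carry the letters of both elements more often than promoters at large. RefSeq promoter windows of 300 bases, from 250 before to 50 after the transcription start, were matched by symbol for 35 of the 43 genes. TTTGAA was present on either strand in 25 of these 35 (71.4%) and in 20.2% of the promoters of all 27025 symbols. Between 100 bases before and 50 after the start it was present in 23 of 35 (65.7%) against 9.23%, and CCAAT on either strand in 24 of 35 (68.6%) against 26.3%. Both lay in that shorter window in 19 of 35 genes (54.3%), against 2.22% of all symbols. By comparison TTTGAA was in the 300 bases of 7 of 35 DNA replication genes (20.0%), 36 of 88 other mitosis genes (40.9%) and 1 of 11 genes of G1 phase (9.09%). CCAAT was in the shorter window of 17 of 35 replication genes (48.6%), 46 of 88 other mitosis genes (52.3%) and 4 of 11 genes of G1 phase (36.4%). A match describes the letters and is no evidence of a bound factor.

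The sequences below show this layout for the 4 genes with TTTGAA that were lowest after 144 h of mTORi on the spike-in normalized scale, and for *Top2a*, which was highest. Each is printed 5′ to 3′ along the gene, in the build GRCm38.p6, from up to 100 bases before the RefSeq start to the start or to the end of the TTTGAA site, whichever lies farther. Capitals mark CCAAT and TTTGAA and their reverse complements ATTGG and TTCAAA. The *Cdca8* stretch is shorter because bases before it lie in an exon of another transcript of the gene in GENCODE M21. Of its 71 printed bases, 30 still lie in GENCODE exons of the gene.
Aurka, chr2:172370533-172370670, minus strand: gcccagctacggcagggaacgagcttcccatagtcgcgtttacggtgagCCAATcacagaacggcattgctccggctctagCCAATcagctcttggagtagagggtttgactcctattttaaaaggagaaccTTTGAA
Hmmr, chr11:40733424-40733537, minus strand: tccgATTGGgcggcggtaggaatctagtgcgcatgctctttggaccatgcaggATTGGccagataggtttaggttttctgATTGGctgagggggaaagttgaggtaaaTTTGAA
Cdc20, chr4:118437344-118437443, minus strand: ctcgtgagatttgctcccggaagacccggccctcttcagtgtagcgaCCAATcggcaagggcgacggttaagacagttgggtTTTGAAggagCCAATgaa
Cdca8, chr4:124936899-124936969, minus strand: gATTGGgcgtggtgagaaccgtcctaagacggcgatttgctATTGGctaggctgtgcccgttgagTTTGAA
Top2a, chr11:99024190-99024289, minus strand: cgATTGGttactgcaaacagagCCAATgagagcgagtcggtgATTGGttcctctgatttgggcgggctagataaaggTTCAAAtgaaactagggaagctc

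In *Cdc20* and *Top2a* the CHR letters begin 18 and 23 bases before the first transcribed base in RefSeq, and in *Hmmr*, *Cdca8* and *Aurka* they begin 8, 13 and 32 bases after it. GENCODE M21 gives other starts. The *Aurka* site lies across its start there, with 3 bases inside the first exon. The *Hmmr* stretch holds 0 bases of a GENCODE exon of the gene, and the *Cdc20* stretch holds 9. In the printed stretches *Aurka*, *Cdc20* and *Cdca8* hold 2 CCAAT sites each, and *Hmmr* and *Top2a* hold 3 each. The genes with the lowest and the highest fold change, *Aurka* and *Top2a*, thus both carry the 2 motifs. Among the 35 genes matched, the 25 with TTTGAA had a median log2 fold change of -0.94 at 144 h on the spike-in normalized scale and the 10 without it had -1.08.

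The 43 mitotic genes together made up a similar share of the transcripts in every library, and their spike-in normalized amount in WT cells was lower after 144 h of mTORi than before it. Summed over the 43 genes, deposited TPM were 4295 and 4263 in WT cells at 0 h, 4936 and 4692 at 24 h, 4249.7 and 4036 at 72 h, then 4490.0 and 4503 at 144 h. In DKO cells the sums were 3927 and 4299 at 0 h, 4489 and 4393 at 24 h, then 4176 and 4224 at 72 h. Every library thus gave these genes between 0.393% and 0.494% of its transcripts, and in WT cells the sums at 24 h and 144 h were above those at 0 h and the sums at 72 h below them, without overlap.

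The spike-in normalized sum in WT cells went from 9068 and 8999 TPM at 0 h to 7077 and 8698 at 24 h, 7021 and 6015 at 72 h, then 4806 and 4503 at 144 h, with all treated libraries below the 0 h pair. In DKO cells it was 11055 and 10211 at 0 h, 10035 and 5962 at 24 h, then 10580.4 and 7296 at 72 h, with both 24 h libraries below the 0 h pair and the first 72 h library between its values. The DKO libraries of replicate 1 were above those of replicate 2 at each time.

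**Figure D1:**
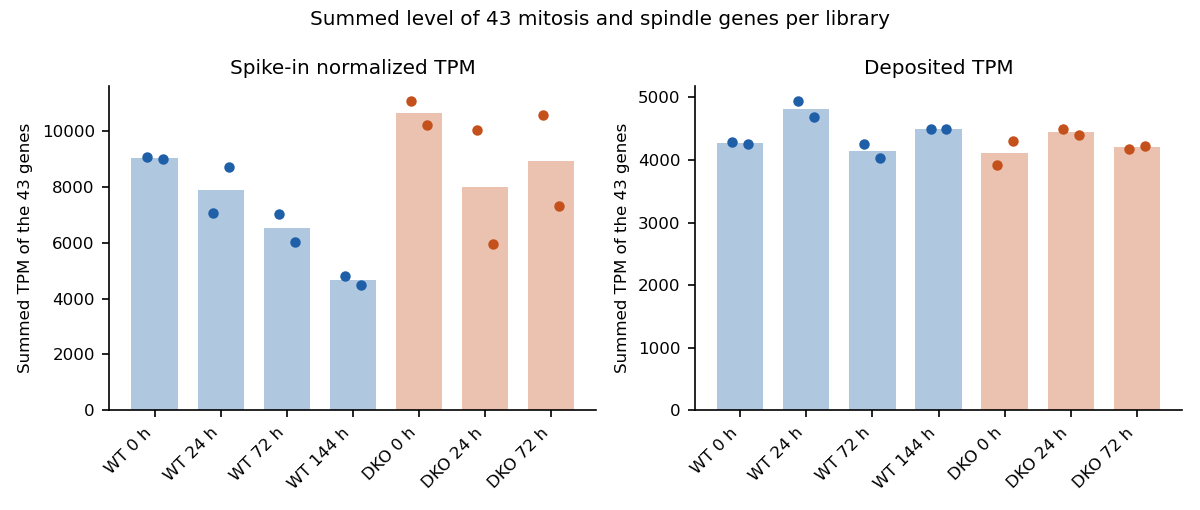
Summed TPM of the 43 mitosis and spindle genes in the 14 libraries, spike-in normalized at left and as deposited at right. Points are libraries, bars are means of the 2 libraries of a group (WT blue, DKO orange), and both axes start at 0. The left panel falls from 9068 and 8999 TPM in WT cells at 0 h to 4806 and 4503 at 144 h, and the right panel stays between 3927 and 4936 TPM.

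After 144 h of mTORi all 43 genes were lower in both WT libraries than in both 0 h libraries on the spike-in normalized scale, and 33 of 43 were called lower and 0 higher. Of all genes tested 50.5% were called lower and 0.461% higher, and 82.1% had both 144 h libraries below both 0 h libraries. The median log2 fold change of the group was -0.98 and that of all genes -0.83. The 10 genes not called were *Bub1*, *Ttk*, *Cenpa*, *Cenpe*, *Cenpf*, *Prc1*, *Ect2*, *Top2a*, *Smc4* and *Espl1*. The call count rested on single libraries: it was 21 without either 0 h library, 25 without the first 144 h library and 14 without the second. With the replicate number as a block within each genotype it was 41 (all genes 66.3%). That the numbers pair libraries processed in parallel was assumed. In a fit of only these 2 groups the count was 43 (all genes 68.2%).

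As a share of the transcripts, genes of the group were called in both directions, as genes at large were. On deposited TPM 6 of 43 fell at 144 h and 9 rose, against 11.7% of all genes lower and 15.6% higher, with a median of 0.041 beside 0.055 for all genes. The genes that fell were *Aurka*, *Cdc25c*, *Hmmr*, *Cdc20*, *Spc24* and *Cdca8*. Those that rose were *Top2a*, *Cenpf*, *Ttk*, *Bub1*, *Prc1*, *Smc4*, *Espl1*, *Cenpe* and *Cenpa*. These genes lie at the 2 ends of the order of fold changes on both scales, and the SE was 0.26 to 0.34 on the spike-in normalized scale and 0.071 to 0.24 on deposited TPM. The number of calls, 15, was 10 without the first 0 h library, 8 without the second, 8 without the first 144 h library and 6 without the second.

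Markers of other cell types moved with the later times at low levels. The 5 trophectoderm markers (*Cdx2*, *Gata3*, *Elf5*, *Krt7*, *Tfap2c*) summed to 22.8 to 46.5 deposited TPM in WT cells at 0 h, 10.4 to 14.6 at 72 h and 15.4 to 16.9 at 144 h, and to 20.2 to 41.3 in DKO cells at 0 h and 10.7 to 13.6 at 72 h. The later sums were below those at 0 h without overlap, and of the 3 markers tested 1 was called, *Gata3*, lower in WT cells at 144 h, and 1 of the 5 was at 0 in both DKO libraries at 72 h. The 5 markers of neuroectoderm and mesendoderm (*Sox1*, *Pax6*, *T*, *Mixl1*, *Eomes*) summed to 8.95 to 11.7 deposited TPM in WT cells at 0 h, 12.3 to 13.3 at 72 h and 15.7 to 17.9 at 144 h, and to 7.35 to 7.46 in DKO cells at 0 h and 10.9 to 11.5 at 72 h. These sums were above those at 0 h without overlap, and of the 4 markers tested 1 was called higher at 72 h and 1 at 144 h in WT cells, and 2 at 72 h in DKO cells. The 5 fibroblast markers were below their 0 h sums without overlap at 72 h, at 3.98 to 5.69 against 6.48 to 9.29 deposited TPM in WT cells. In DKO cells they were at 7.21 to 9.29 against 11.6 to 18.5. At 144 h in WT cells they were at 5.52 to 6.69, which overlapped 0 h. The part of these 3 lists in the mitotic genes' values was not tested.

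**Figure D2:**
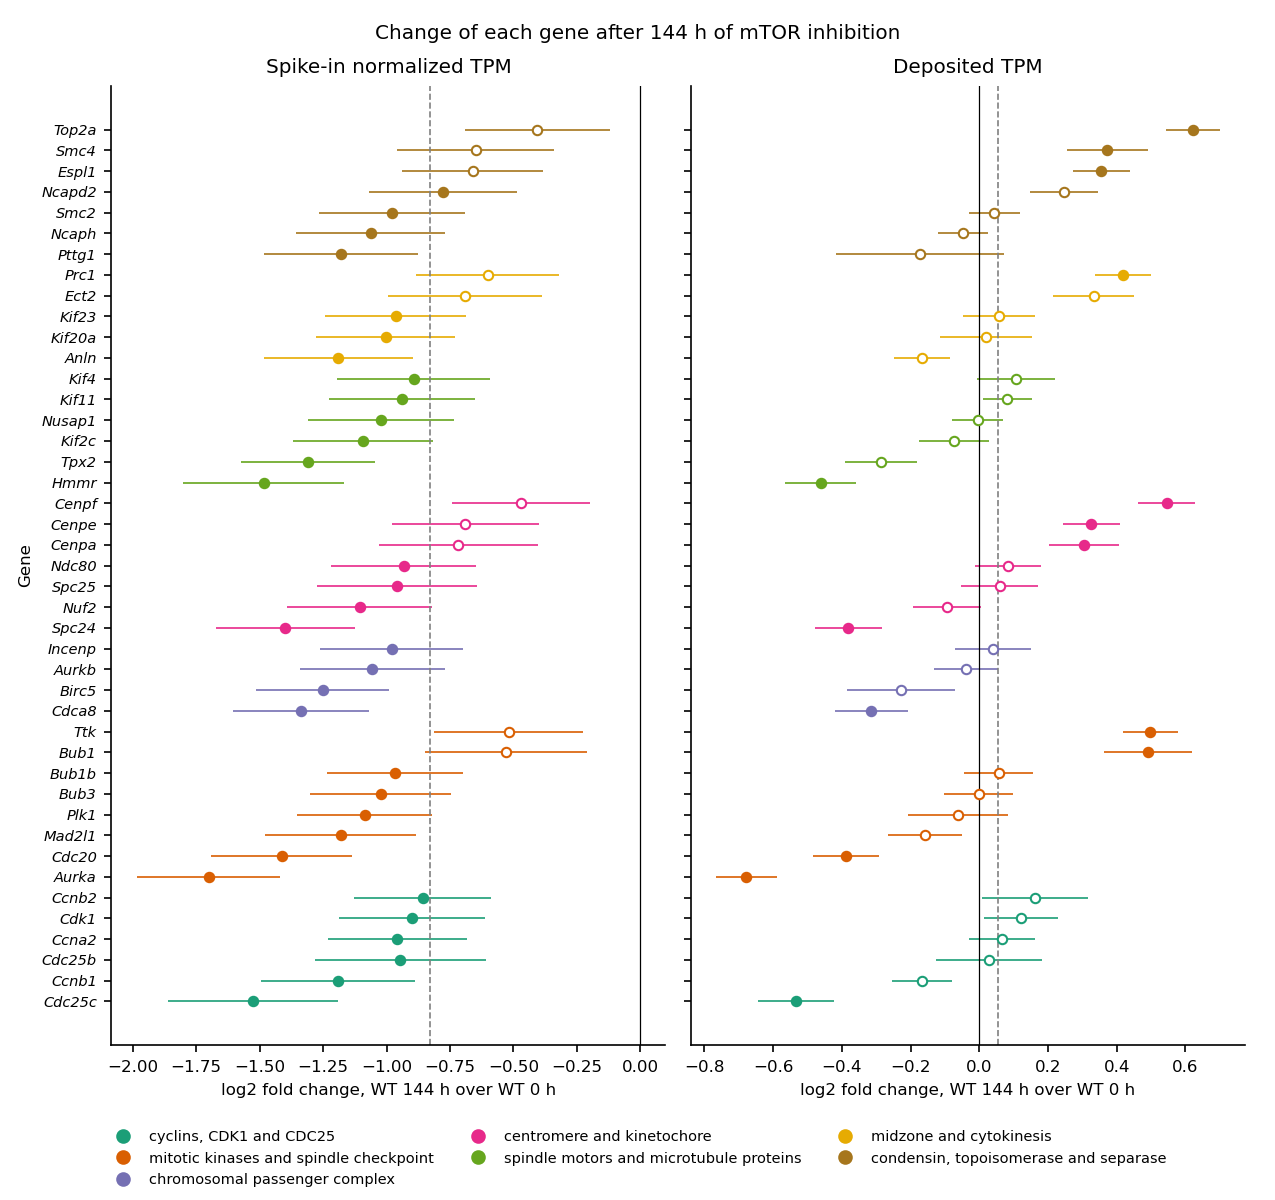
Log2 fold change of each of the 43 genes in WT cells after 144 h of mTORi over 0 h, with SE as bars, on spike-in normalized TPM (left) and deposited TPM (right). Colors mark the roles, filled points an adjusted p under 0.05 and the dashed line the median of the 18232 genes. All 43 points lie below 0 at left, and at right they run from -0.68 for *Aurka* to 0.62 for *Top2a*.

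The counts by role that follow stand beside the same shares of all genes at 144 h, 50.5% called lower on the spike-in normalized scale, and 11.7% lower and 15.6% higher on deposited TPM. All 6 genes of the CDK1 switch were called lower at 144 h on the spike-in normalized scale, as were 50.5% of all genes, and on deposited TPM *Cdc25c* fell while the other 5 were not called. *Ccnb1*, the main mitotic cyclin, was at 492 and 525 spike-in normalized TPM in WT cells at 0 h and at 231 and 214 at 144 h (-1.19 ± 0.30, adjusted p = 0.0043). In deposited TPM it was 233 and 249, then 216 and 214, at 0 h and 144 h, a difference of -0.17 ± 0.088, adjusted p = 0.187. The groups at 0 h and 144 h did not overlap on either scale.

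*Cdk1*, the kinase itself, was at 206 and 200.4 spike-in normalized TPM at 0 h and 116 and 101 at 144 h (-0.90 ± 0.29, adjusted p = 0.0157), and at 97.6 and 94.9, then 109 and 101 deposited TPM (0.12 ± 0.11, adjusted p = 0.435). *Cdc25c*, the phosphatase that removes the inhibitory phosphates from CDK1, was at 37.8 and 38.9 spike-in normalized TPM and then 12.6 and 12.7 (-1.53 ± 0.34, adjusted p = 0.00174). Its deposited TPM were 17.9 and 18.4 at 0 h, 20.2 and 19.9 at 24 h, 12.7 and 12.7 at 72 h, then 11.8 and 12.7 at 144 h. The gene was above its 0 h values at 24 h without a call, and it was called lower as a share at 72 h (-0.48, adjusted p = 0.0116) and at 144 h (-0.53, adjusted p = 0.00664). Its relative *Cdc25b* was at 12.5 and 12.4, then 12.9 and 12.5 deposited TPM (0.029, adjusted p = 0.907), *Ccnb2* changed by 0.16, adjusted p = 0.46 and *Ccna2*, the cyclin of S and G2 phase, by 0.066, adjusted p = 0.641.

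The kinases and checkpoint genes ranged from *Aurka*, the lowest of the 43, to *Ttk*. On the spike-in normalized scale 6 of 8 were called lower at 144 h, and on deposited TPM *Aurka* and *Cdc20* fell and *Ttk* and *Bub1* rose. *Aurka*, the kinase of centrosomes and spindle poles, was at 261 and 251 spike-in normalized TPM at 0 h and 81.4 and 74.8 at 144 h, the lowest fold change of the 43 (-1.70 ± 0.28, adjusted p = 0.00027). In deposited TPM it went from 124 and 119 at 0 h to 95.8 and 93.5 at 24 h, 75.6 and 66.3 at 72 h, then 76.1 and 74.8 at 144 h (-0.68 ± 0.089, adjusted p = 0.000656 at 144 h). It was called lower as a share than at 0 h at each later time, and the 72 h and 144 h values overlapped.

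*Cdc20*, the activator of the anaphase-promoting complex, was at 470.2 and 525 spike-in normalized TPM and then 204 and 169.6 (-1.41 ± 0.28, adjusted p = 0.000814). Its deposited TPM were 223 and 249 at 0 h, 226 and 195 at 24 h, 162 and 150.1 at 72 h, then 190.4 and 169.6 at 144 h (-0.39 ± 0.10, adjusted p = 0.0149), with the 24 h values overlapping those at 0 h and all later ones below. *Ttk*, the checkpoint kinase MPS1, went from 59.8 and 63.3 deposited TPM to 85.1 and 89.7 (0.50 ± 0.08, adjusted p = 0.00178), with 126 and 134, then 91.1 and 89.7 on the spike-in normalized scale (-0.52 ± 0.29, adjusted p = 0.143). *Bub1*, another checkpoint kinase, rose by 0.49 ± 0.13, adjusted p = 0.0185 on deposited TPM. *Ttk* and *Bub1* thus rose as a share, and their spike-in normalized values were below 0 h without a call.

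Other checkpoint genes and *Plk1* were not called on deposited TPM and were called lower after spike-in normalization. *Bub3*, which brings BUB1 and BUBR1 to the kinetochore, was at 82.6 and 83.6 deposited TPM at 0 h and 85.8 and 80.2 at 144 h (-0.0021 ± 0.10, adjusted p = 0.99) and at 174 and 176, then 91.9 and 80.2 spike-in normalized TPM (-1.02 ± 0.28, adjusted p = 0.00627). *Bub1b*, which encodes BUBR1, was at 139 and 127, then 141 and 134 deposited TPM (0.056 ± 0.10, adjusted p = 0.715), and at 292 and 267, then 151 and 134 spike-in normalized TPM (-0.97 ± 0.27, adjusted p = 0.00711). *Plk1*, the Polo-like kinase of mitotic entry, was at 141 and 122, then 128 and 122 deposited TPM (-0.062 ± 0.15, adjusted p = 0.785), and at 297 and 257, then 137 and 122 spike-in normalized TPM (-1.09 ± 0.27, adjusted p = 0.00338). The deposited values of these 3 genes overlapped between 0 h and 144 h, and their spike-in normalized values did not. *Mad2l1* (MAD2) was called lower on the spike-in normalized scale and not on deposited TPM (-0.16, adjusted p = 0.302).

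The 4 genes of the chromosomal passenger complex, which corrects faulty attachments and later steers cytokinesis, were all called lower at 144 h on the spike-in normalized scale (log2 fold changes -1.34 to -0.98). On deposited TPM *Cdca8* (borealin) fell (-0.31 ± 0.11, adjusted p = 0.0493), and *Birc5* (survivin, -0.23, adjusted p = 0.31), *Aurkb* and *Incenp* (0.041, adjusted p = 0.811) were not called. *Aurkb*, the kinase of the complex, was at 58.5 and 56.4 deposited TPM at 0 h, 50.7 and 41.9 at 24 h, 50.5 and 50.3 at 72 h, then 53.1 and 58.8 at 144 h (-0.039 ± 0.094, adjusted p = 0.791). It was lower as a share at 24 h (-0.31, adjusted p = 0.0298) and overlapped the 0 h values at 144 h. It was, on the spike-in normalized scale, 124 and 119 at 0 h and 56.9 and 58.8 at 144 h (-1.06 ± 0.29, adjusted p = 0.00623). At 24 h *Birc5*, *Cdca8* and *Aurkb* were called lower as a share in WT cells and *Incenp* was not called (0.17), where 14.1% of all genes were called lower, and in DKO cells *Cdca8* was the 1 gene of the 4 called lower, where 13.3% of all genes were.

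At the kinetochore, 4 of 7 genes were called lower at 144 h on the spike-in normalized scale, and on deposited TPM 1 fell and 3 rose. The 4 lower ones are the subunits of the NDC80 complex, the main microtubule coupler of the kinetochore, with log2 fold changes of -1.40 for *Spc24*, -1.11 for *Nuf2*, -0.96 for *Spc25* and -0.93 for *Ndc80*. On deposited TPM only *Spc24* of the 4 was called (-0.38 ± 0.10, adjusted p = 0.0173). *Ndc80* was at 53.0 and 52.2 deposited TPM at 0 h, 88.9 and 89.8 at 24 h, 58.2 and 57.3 at 72 h, then 53.7 and 58.0 at 144 h, that is, high at 24 h (0.75, adjusted p = 0.000412) and near its 0 h level at 144 h (0.083, adjusted p = 0.552). *Spc24* of the same complex was lower at 24 h (-0.29, adjusted p = 0.0487), its TPM going from 57.9 and 60.1 at 0 h to 51.2 and 45.3 at 24 h. The genes *Spc24*, *Cdc25b* and *Ncapd2* were chosen for their library values after these were seen.

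*Cenpf*, *Cenpe* and *Cenpa* were the 3 genes of this role that rose as a share. *Cenpa*, the histone H3 variant that marks centromeres, was at 102 and 112 deposited TPM at 0 h and 131 and 134 at 144 h (0.31 ± 0.10, adjusted p = 0.0497), and at 216 and 236, then 139.8 and 134 spike-in normalized TPM (-0.72 ± 0.31, adjusted p = 0.0618). *Cenpf*, a large protein of the outer kinetochore, was at 62.5 and 57.2, then 88.0 and 87.5 deposited TPM (0.55 ± 0.083, adjusted p = 0.00136) and at 132 and 121, then 94.2 and 87.5 spike-in normalized TPM (-0.47 ± 0.27, adjusted p = 0.15). *Cenpe*, the kinetochore kinesin, rose by 0.33 ± 0.083, adjusted p = 0.0166 on deposited TPM. For each of the 3, every 144 h library was above every 0 h library on deposited TPM and below on the spike-in normalized scale. Of all genes 37.3% lay above in this way on deposited TPM and 82.1% below on the spike-in normalized scale.

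All 6 spindle motors and microtubule proteins were called lower at 144 h on the spike-in normalized scale, where 50.5% of all genes were, and on deposited TPM *Hmmr* fell and the other 5 were not called. *Kif11*, the kinesin Eg5 that pushes the spindle poles apart, was at 203 and 215 spike-in normalized TPM at 0 h and 110.1 and 107 at 144 h (-0.94 ± 0.29, adjusted p = 0.012), and at 96.1 and 102, then 103 and 107 deposited TPM (0.082 ± 0.071, adjusted p = 0.421). *Hmmr*, a spindle pole protein, was at 207 and 226, then 78.4 and 75.0 spike-in normalized TPM (-1.48 ± 0.32, adjusted p = 0.00143). In deposited TPM *Hmmr* was 98.2 and 107 at 0 h, 97.5 and 105 at 24 h, 67.2 and 68.6 at 72 h, then 73.3 and 75.0 at 144 h (-0.46 ± 0.10, adjusted p = 0.00941). It overlapped its 0 h values at 24 h and, like *Cdc25c*, was below them from 72 h on. *Tpx2*, the spindle activator of Aurora A, changed by -0.29, adjusted p = 0.0696 on deposited TPM, and *Kif2c*, *Kif4* and *Nusap1* by -0.072, 0.11 and -0.0048.

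Of the 5 genes of the spindle midzone and cytokinesis, *Anln*, *Kif20a* and *Kif23* were called lower at 144 h on the spike-in normalized scale, and on deposited TPM *Prc1* rose and no other was called. *Prc1*, which bundles the microtubules of the midzone, was at 94.5 and 88.9 deposited TPM at 0 h and 122 and 124 at 144 h (0.42 ± 0.082, adjusted p = 0.00469), and at 199 and 188, then 130.3 and 124 spike-in normalized TPM (-0.60 ± 0.28, adjusted p = 0.0785). *Anln* (anillin), the scaffold of the contractile ring, was at 109.8 and 121, then 104 and 101 deposited TPM (-0.17 ± 0.082, adjusted p = 0.159) and at 232 and 256, then 112 and 101 spike-in normalized TPM (-1.19 ± 0.29, adjusted p = 0.00343). *Ect2*, the exchange factor that activates RhoA for the ring, changed by 0.33, adjusted p = 0.0604 on deposited TPM.

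The genes of chromosome condensation and separation had the highest median of the 7 roles on deposited TPM, 0.25 at 144 h, with 3 of 7 called higher and none lower, while 4 were called lower on the spike-in normalized scale. *Top2a*, the topoisomerase that untangles sister chromatids, was the most abundant of the 43 in every group. It was at 358 and 346 deposited TPM at 0 h, 488 and 456 at 24 h, 457 and 432 at 72 h, then 548 and 536 at 144 h (0.62 ± 0.079, adjusted p = 0.000567), and all treated libraries were above the 0 h pair. *Top2a* was, on the spike-in normalized scale, at 756 and 730.5, then 586 and 536 TPM (-0.41 ± 0.28, adjusted p = 0.234), the highest fold change of the group and not called.

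*Smc4*, the condensin ATPase, was at 93.3 and 103 deposited TPM at 0 h and 117 and 138 at 144 h (0.37 ± 0.12, adjusted p = 0.0395), and at 197 and 217, then 125 and 138 spike-in normalized TPM (-0.65 ± 0.31, adjusted p = 0.0826). Its partner *Smc2* did not pass on deposited TPM (0.044, adjusted p = 0.692), nor did *Ncaph* (-0.047, adjusted p = 0.666) or *Ncapd2* (0.25, adjusted p = 0.0883). *Espl1* (separase) rose by 0.36 ± 0.083, adjusted p = 0.0112. *Pttg1* (securin), its inhibitor, was at 41.4 and 26.0 deposited TPM at 0 h, 25.9 and 23.1 at 24 h, 15.1 and 18.4 at 72 h, then 27.9 and 30.3 at 144 h. The 2 untreated *Pttg1* values lie far apart, and the 144 h values lie between them (-0.17 ± 0.24, adjusted p = 0.636). *Pttg1* was, on the spike-in normalized scale, at 87.3 and 55.0, then 29.8 and 30.3 (-1.18 ± 0.30, adjusted p = 0.00457).

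At 24 h in WT cells, *Birc5* was the 1 gene of 43 called lower on the spike-in normalized scale (-0.84 ± 0.26, adjusted p = 0.0454) and none was called higher, against 8.73% and 1.25% of all genes, with a median of -0.25 beside -0.33 over all genes. With the replicate block it was 7 (all genes 25.7%), in a fit of only these 2 groups 7 (all genes 19.8%), and without any 1 of the libraries compared it was 0. On deposited TPM 6 fell and 13 rose, against 14.1% and 15.8%. Those that fell were *Aurka*, *Aurkb*, *Birc5*, *Cdca8*, *Mad2l1* and *Spc24*. The highest was *Ncapd2*, a condensin subunit, at 184 and 193 deposited TPM at 0 h, 385 and 328 at 24 h, 301 and 320.0 at 72 h, then 223 and 225 at 144 h (0.91 ± 0.10, adjusted p = 0.000169 at 24 h). *Ncaph* (0.63, adjusted p = 0.000239), *Cenpe* (0.81, adjusted p = 0.000139) and *Ndc80* (0.75, adjusted p = 0.000412) rose with it, and all 4 were nearer their 0 h levels at 144 h. The number of calls, 19, was 11 without the first 0 h library and 12 without the second 24 h library. Markers of primitive endoderm (*Gata4*, *Gata6*, *Sox17*, *Dab2*, *Pdgfra*) moved with this time point: their sum was 11.3 to 39.0 deposited TPM at 0 h and 92.2 to 171 at 24 h, with 5 of 5 called higher and none at 0, and 12.6 to 35.5 at 72 h. The fibroblast markers were low and went the other way, from 6.48 to 9.29 TPM at 0 h to 2.53 to 4.31 at 24 h, with 1 of the 5 at 0 in both 24 h libraries. The part of either list in the mitotic genes' values was not tested.

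At 72 h *Pttg1*, *Aurka* and *Cdc20* were called lower on the spike-in normalized scale (-1.37, -1.20 and -1.02) and no gene higher, against 7.6% and 0.697% of all genes. The median was -0.53 beside -0.33 for all genes. With the replicate block 17 were called (all genes 25.4%), in a fit of only these 2 groups 22 (all genes 25.9%), and without 1 library at a time 0 or 1. On deposited TPM 9 fell and 5 rose, against 11.4% and 12.6%. The 9 were *Pttg1*, *Aurka*, *Cdc20*, *Hmmr*, *Cdc25c*, *Spc24*, *Cdca8*, *Ccnb1* and *Mad2l1*, and the 5 were *Ncapd2*, *Cenpf*, *Top2a*, *Ttk* and *Prc1*. This number of calls, 14, was 6 without the second 72 h library and 9 without any other 1 of the 4. *Ccnb1* was lowest as a share at this time, at 187 and 182 TPM (-0.38 ± 0.088, adjusted p = 0.011). The 24 h, 72 h and 144 h comparisons share the same 0 h libraries.

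Between 72 h and 144 h in WT cells limma called 0 of 43 genes on either scale, where 0.395% of all genes were called on spike-in normalized TPM and 0.357% on deposited TPM. At an unadjusted p under 0.05 there were 6 and 8 genes of the 43, against 19.1% and 10.4% of all genes. The median spike-in normalized change was -0.47, beside -0.50 for all genes, and with the replicate block 4 were called lower (all genes 18.5%). On deposited TPM the block gave 1 lower call (all genes 0.609%). A fit of these 2 groups alone, with no other group to share the estimate of the spread, called 29 of 43 lower on the spike-in normalized scale, where 50% of all genes were called lower.

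**Figure D3:**
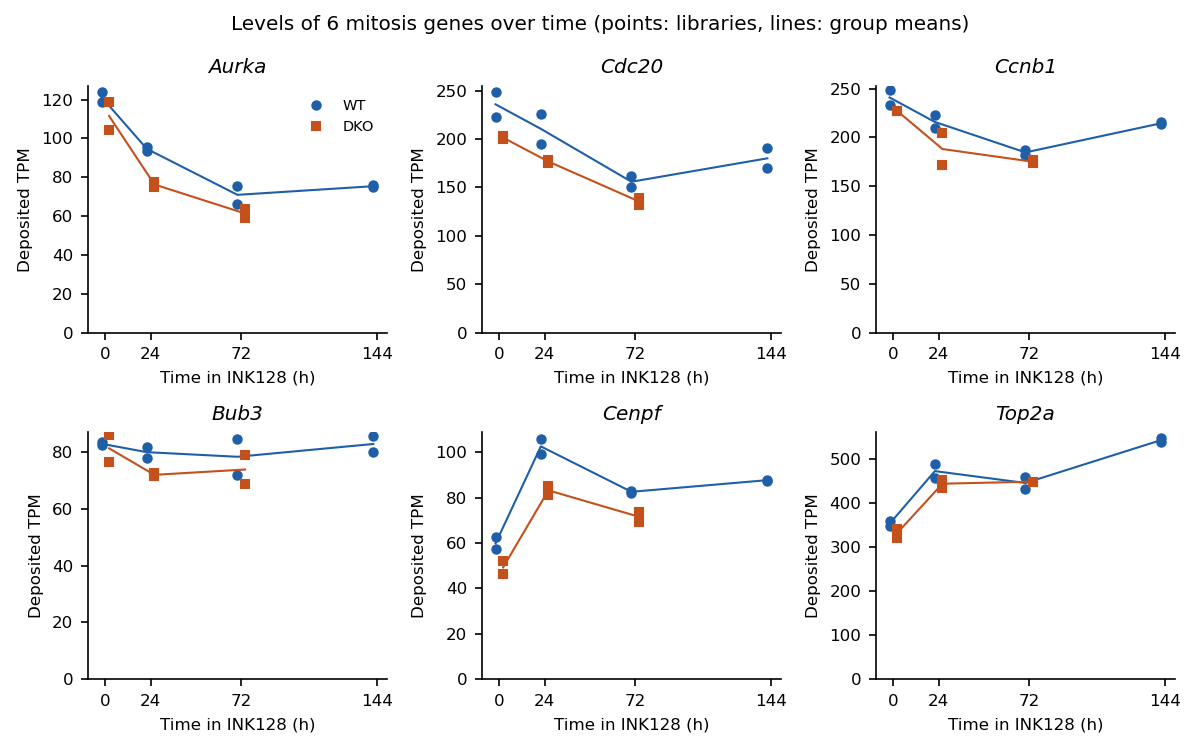
Deposited TPM of 6 mitosis genes against time in INK128 (h) in WT (blue circles) and DKO cells (orange squares), with libraries as points and group means as lines, and axes from 0. *Aurka* falls from 124 and 119 TPM in WT and 104 and 119 in DKO cells at 0 h to 75.6 and 66.3 in WT and 59.3 and 63.4 in DKO cells at 72 h. *Top2a* rises from 358 and 346 to 457 and 432 in WT and from 321 and 341 to 448 and 448 in DKO cells.

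In *Tet1/2* DKO cells at 24 h genes were again called in both directions as a share, in the group and among all genes. On deposited TPM 5 of 43 fell and 11 rose, against 13.3% and 11.6% of all genes. The 5 were *Cdca8*, *Aurka*, *Mad2l1*, *Spc24* and *Ccnb1*. *Aurka* was at 104 and 119 deposited TPM at 0 h, 77.5 and 75.0 at 24 h, then 59.3 and 63.4 at 72 h (-0.85 ± 0.089, adjusted p = 0.000365 at 72 h), with no overlap between the times. *Cdc20* was at 200.1 and 203 at 0 h, 176 and 178 at 24 h, then 132 and 139 at 72 h (-0.57 ± 0.10, adjusted p = 0.00294 at 72 h). The fibroblast markers summed to 11.6 to 18.5 deposited TPM in DKO cells at 0 h and 4.38 to 9.35 at 24 h, without overlap. Their part in the mitotic genes' values was not tested.

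On the spike-in normalized scale *Aurka*, *Birc5*, *Cdca8*, *Mad2l1*, *Plk1*, *Pttg1* and *Spc24* were called lower in DKO cells at 24 h, 7 of 43, and none higher, against 18.7% and 0.505% of all genes, with a median of -0.52 beside -0.49. This count depended on the 24 h libraries, whose factors differed: it was 28 without the first of them, 0 without the second, 0 without the first 0 h library and 1 without the second. With the replicate block it was 21 (all genes 38.1%), and in a fit of only these 2 groups 0 (all genes 2.85%). *Aurka* was at 294 and 282 spike-in normalized TPM at 0 h and 173 and 102 at 24 h (-1.11 ± 0.28, adjusted p = 0.0111).

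At 72 h in DKO cells 8 genes fell on deposited TPM and 7 rose, against 9.06% and 17.2% of all genes. The 8 were *Aurka*, *Cdc20*, *Hmmr*, *Cdca8*, *Plk1*, *Spc24*, *Ccnb1* and *Nusap1*, and the 7 were *Ncapd2*, *Ttk*, *Cenpf*, *Smc4*, *Top2a*, *Prc1* and *Cenpe*. *Top2a* was at 321 and 341 TPM at 0 h and 448 and 448 at 72 h (0.44 ± 0.079, adjusted p = 0.00382). *Plk1* was at 122 and 143, then 84.7 and 104 (-0.49 ± 0.15, adjusted p = 0.0329). The number of calls, 15, was 9 without either 72 h library. After spike-in normalization *Aurka* alone was called lower (-1.16 ± 0.28, adjusted p = 0.0289) and none higher, against 2.95% and 0.713% of all genes, with a median of -0.27 beside -0.12. The replicate block gave 7 (all genes 13.2%), and leaving out 1 library at a time gave 0 or 1.

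Few differences between the genotypes were called. Limma called, after spike-in normalization, 0 of 43 genes in DKO against WT cells at 0 h, 24 h and 72 h, where 0.0439%, 0.0439% and 0.329% of all genes were called in either direction, and at an unadjusted p under 0.05 there were 0, 0 and 8 genes, against 8.35%, 4.14% and 23% of all genes. The median differences of the 43 were 0.23, -0.0057 and 0.45, beside 0.29, 0.10 and 0.49 for all genes.

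On deposited TPM *Cenpe* was lower in DKO cells at all 3 times. It was at 53.0 and 49.8 TPM in WT and 33.5 and 36.8 in DKO cells at 0 h (-0.54 ± 0.083, adjusted p = 0.0282), at 91.8 and 89.5 against 58.1 and 56.4 at 24 h (-0.65 ± 0.083, adjusted p = 0.00801), and at 63.2 and 55.7 against 45.8 and 46.9 at 72 h (-0.35 ± 0.083, adjusted p = 0.0466). The libraries of the 2 genotypes did not overlap for *Cenpe* at any time on this scale. *Nusap1*, which stabilizes spindle microtubules, was lower at 24 h, at 69.2 and 64.7 against 50.7 and 51.4 TPM (-0.38 ± 0.074, adjusted p = 0.0382), and at 72 h, at 56.3 and 52.0 against 42.0 and 41.0 (-0.38 ± 0.074, adjusted p = 0.0284). On the spike-in normalized scale neither gene was called at any time, and at 72 h the values turn: *Cenpe* was at 104 and 83.1 TPM in WT and 116 and 81.0 in DKO cells (0.058 ± 0.29, adjusted p = 0.886), and *Nusap1* at 92.9 and 77.5 against 106 and 70.8 (0.032 ± 0.29, adjusted p = 0.938), with overlap. The uncalled differences on that scale were -0.56 for *Cenpe* and -0.29 for *Nusap1* at 24 h, and -0.25 for *Cenpe* at 0 h. No other gene of the group was called on deposited TPM. The calls were 1, 2 and 2 lower and 0 higher at 0 h, 24 h and 72 h. Of all genes 0.176%, 0.79% and 0.845% were called lower and 0.422%, 0.581% and 3.17% higher. At an unadjusted p under 0.05 limma gave 9, 13 and 10 genes of the group, against 13.9%, 14.8% and 21.2% of all genes. Both DKO libraries lay below both WT libraries for 18, 20 and 11 genes and above for 2, 1 and 15. The shares of all genes were 16.6%, 18.8% and 15.1% below and 24.4%, 21.6% and 39.3% above. The median differences of the group were -0.050, -0.10 and 0.032, beside 0.018, 0.014 and 0.11 for all genes. The primitive endoderm markers named above summed to 27.8 to 66.4 deposited TPM in DKO cells at 24 h, below the WT libraries of that time. The fibroblast markers were above WT without overlap at all 3 times, at 11.6 to 18.5 against 6.48 to 9.29 at 0 h. They were at 4.38 to 9.35 against 2.53 to 4.31 at 24 h and 7.21 to 9.29 against 3.98 to 5.69 at 72 h. The neuroectoderm and mesendoderm markers were below WT without overlap at all 3 times, at 7.35 to 7.46 against 8.95 to 11.7 at 0 h. They were at 6.63 to 7.39 against 8.63 to 8.67 at 24 h and 10.9 to 11.5 against 12.3 to 13.3 at 72 h. The part of these lists in the differences was not tested. Leaving out 1 library at a time left 0 at 0 h and 72 h and 0 or 1 at 24 h.

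The response to mTORi was not called different between the genotypes for any of the 43 genes. The difference of the log2 fold changes, DKO minus WT, had a median of -0.24 at 24 h and 0.22 at 72 h on the spike-in normalized scale, beside -0.19 and 0.21 over all genes, of which limma called 0.00548% and 0%. On deposited TPM 0% of all genes were called at both times. At an unadjusted p under 0.05 the group had 0 genes on the spike-in normalized scale at both times, and 0 and 2 on deposited TPM, against 1.22% and 0.993% of all genes on the first scale and 3.87% and 3.71% on the second. The SE of this difference was large, for *Aurka* 0.40 around 0.037 at 72 h, and 2 libraries per group do not show that the responses are alike.

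The paused WT cells at 144 h and the DKO cells at 72 h, which share no libraries, are set side by side here as changes of share. Across the 43 genes, which are not independent of each other, Pearson's r between the 2 log2 fold changes on deposited TPM was 0.865 and Spearman's rho 0.883, and 38 had the same sign (88.4%). Over the 18232 genes tested r was 0.697, rho 0.707 and the shared sign 77.3%. Of the 6 genes called lower in WT cells at 144 h, 5 were called lower in DKO cells at 72 h, all but *Cdc25c* (-0.078, adjusted p = 0.641 in DKO). Of the 9 called higher, 6 were called higher, and *Bub1*, *Cenpa* and *Espl1* were not. Over all genes 52.4% of the 2134 called lower in WT cells at 144 h were also called lower in DKO cells at 72 h, and 64.8% of the 2844 called higher were also called higher.

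**Figure D4:**
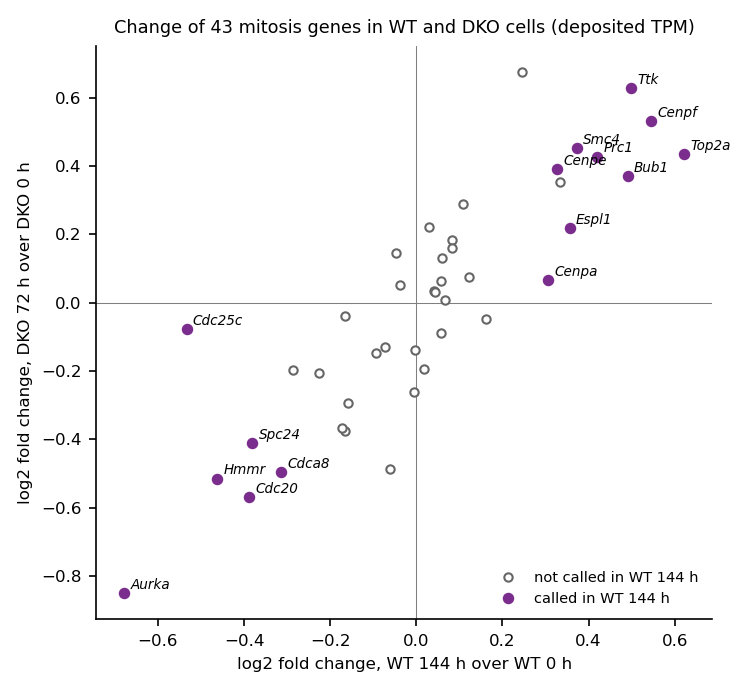
Log2 fold change on deposited TPM of the 43 genes in WT cells at 144 h over 0 h (x axis) and in DKO cells at 72 h over 0 h (y axis). Filled, named points are the 15 genes called in WT cells at 144 h. The points run along the diagonal from *Aurka* (-0.68 and -0.85) to *Top2a* (0.62 and 0.44) and *Ttk* (0.50 and 0.63), with *Cdc25c* near 0 on the y axis.

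A ratio within a library does not depend on the spike-in factor. The ratio of *Aurka* to *Top2a*, the ends of the range, was 0.346 and 0.343 in WT cells at 0 h, 0.196 and 0.205 at 24 h, 0.165 and 0.154 at 72 h, then 0.139 and 0.139 at 144 h. In DKO cells it was 0.326 and 0.348 at 0 h, 0.171 and 0.173 at 24 h, then 0.132 and 0.142 at 72 h. The ratio went down from each time to the next without overlap in both genotypes, and this pair was chosen after its values were seen. *Ccnb1* to *Ccna2*, a pair of cyclins, was 1.84 and 2.03 in WT cells at 0 h and 1.68 and 1.61 at 144 h, and 2.41 and 2.16 in DKO cells at 0 h and 1.76 and 1.74 at 72 h.

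Other genes of mitosis, in 5 lists of 101 genes together, were measured alongside the 43, and their values at 144 h in WT cells follow. After spike-in normalization 76 of 101 were called lower and 0 higher with a median of -0.98, against 50.5% and 0.461% of all genes and a median of -0.83. On deposited TPM 15 fell and 18 rose with a median of 0.022, against 11.7% and 15.6% of all genes and a median of 0.055. All 18 genes of the anaphase-promoting complex and its E2 enzymes were called lower on the spike-in normalized scale, where 50.5% of all genes were, and on deposited TPM 4 fell (11.7% of all genes), *Cdc26*, a small subunit, the most (-1.28 ± 0.21, adjusted p = 0.00217). Of 12 cohesin genes 9 were called lower, and on deposited TPM 3 rose: *Stag2* (0.61 ± 0.11, adjusted p = 0.00297), *Nipbl*, the cohesin loader, and *Smc1a*. Of 28 further kinetochore genes 18 were called lower. On deposited TPM 4 of the 28 fell, among them *Cenpm* (-0.63 ± 0.18, adjusted p = 0.0245), and 7 rose, among them *Kntc1* (0.68 ± 0.095, adjusted p = 0.000885).

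Of 17 further kinesins and spindle proteins 15 were called lower on the spike-in normalized scale, against 50.5% of all genes. On deposited TPM 4 of the 17 fell, among them *Gtse1* (-0.54 ± 0.077, adjusted p = 0.001), *Ckap2* and *Kifc1*, against 11.7% of all genes. On that scale 2 of the 17 rose, against 15.6% of all genes: *Ckap5* (0.29 ± 0.075, adjusted p = 0.0166) and *Numa1*, the spindle pole protein NuMA (0.64 ± 0.12, adjusted p = 0.00377). Of 26 regulators of entry, exit and cytokinesis 16 were called lower on the spike-in normalized scale, against 50.5% of all genes. On deposited TPM 3 fell and 6 rose, against 11.7% and 15.6% of all genes. Among those that rose were *Cit* (citron kinase of the cleavage furrow, 0.97 ± 0.11, adjusted p = 0.000428) and *Cdc14b* (1.24 ± 0.12, adjusted p = 0.000141). *Cdc25a*, the phosphatase of G1/S and of mitotic entry, fell as a share (-0.52 ± 0.085, adjusted p = 0.00198), as its relative *Cdc25c* did.

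Transcription factors of these promoters and subunits of their complexes were measured too. Of 16 such genes 9 were called lower at 144 h on the spike-in normalized scale, near the 50.5% of all genes, and on deposited TPM 1 fell and 5 rose, against 11.7% and 15.6%. *Foxm1*, the forkhead factor of G2 genes, rose as a share (0.60 ± 0.11, adjusted p = 0.00387), as did *Rbl1* (p107 of the DREAM complex, 0.78 ± 0.20, adjusted p = 0.0165) and *Nfya* (NF-Y, 0.53 ± 0.14, adjusted p = 0.0221), and *Rbbp4* fell (-0.39 ± 0.10, adjusted p = 0.0167). On the spike-in normalized scale *Foxm1* (-0.41), *Rbl1* (-0.17) and *Nfya* (-0.48) were not called, and *Rbbp4* was called lower (-1.42 ± 0.30, adjusted p = 0.00139).

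Genes of the other phases of the cycle are given for comparison. Of 43 DNA replication genes 37 were called lower at 144 h on the spike-in normalized scale with a median of -1.11, against 50.5% and -0.83 for all genes, and 6 fell and 5 rose on deposited TPM, against 11.7% and 15.6%. The lowest of them was *Cdc6*, which helps load the replicative helicase (-0.74 ± 0.12, adjusted p = 0.0016 on deposited TPM), and the highest *Pola1*, of DNA polymerase alpha (0.58 ± 0.10, adjusted p = 0.00234). Of 15 G1 cyclins, CDKs and inhibitors 12 were called lower on the spike-in normalized scale with a median of -1.02, and 3 fell and 1 rose on deposited TPM, beside the same shares of all genes. *Ccnd3* (-1.18 ± 0.24, adjusted p = 0.00535) and *Ccne1* (-0.92 ± 0.19, adjusted p = 0.00641), the G1 cyclins D3 and E1, fell as a share, as did *Cdkn2b*, the CDK inhibitor p15 (-0.98 ± 0.23, adjusted p = 0.0118), and *Cdkn1b*, the CDK inhibitor p27, rose (0.85 ± 0.15, adjusted p = 0.00315). Differences between these lists and the mitotic genes were not tested.

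The change of share went with the length of the gene's exons. Over the 43 genes, Spearman's rho between the summed exon length in GENCODE M21 and the log2 fold change on deposited TPM at 144 h in WT cells was 0.446, and over 18220 of the genes tested it was 0.19. In DKO cells at 72 h the values were 0.505 and 0.0763. *Cenpf*, the longest at 15433 bases, and *Top2a*, at 9013, rose, and *Cdc20* (1868), *Aurka* (2531) and *Spc24* (2573) fell. Other genes went the other way. *Hmmr* (5431) and *Cdca8* (5177), in the longer part of the list, fell, and *Bub1* (4354), in the shorter part, rose. *Ccnb2*, the shortest at 1531, was at 0.16 and *Anln* (9063) at -0.17, both without a call. *Ttk* and *Cdc25c*, which have the same 4919 bases, changed by 0.50 and -0.53. The genes share libraries and are not independent points, and the part of length in the values was not tested. Of the 43 genes, 16 overlap a gene on the opposite strand in the deposited coordinates (*Bub3*, *Cdc20*, *Plk1*, *Cenpf*, *Cdca8*, *Kif20a*, *Kif4*, *Top2a*, *Ccna2*, *Cdc25b*, *Cdc25c*, *Prc1*, *Ect2*, *Nusap1*, *Smc2* and *Espl1*), and whether TPM were estimated by strand is not given in the sources used here.

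**Figure D5:**
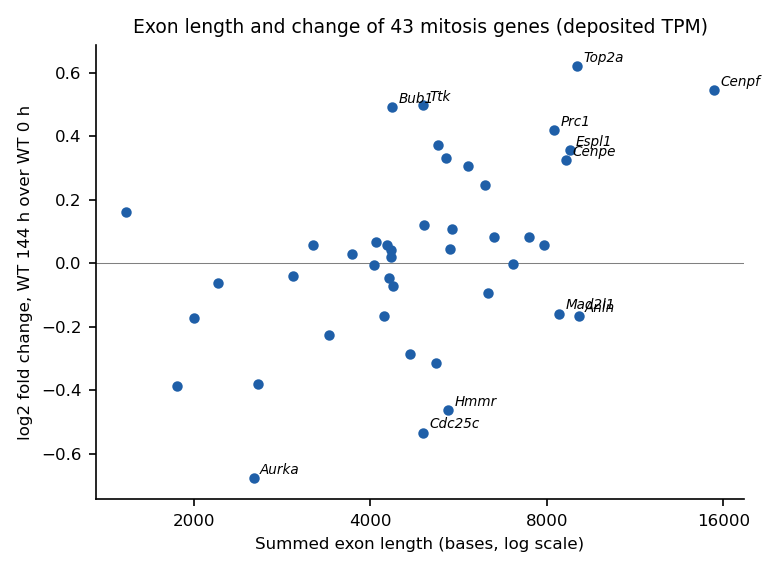
Log2 fold change on deposited TPM in WT cells at 144 h over 0 h (y axis) against summed exon length in bases (x axis, log scale) for the 43 genes, 1 point per gene. Points rise from short to long genes with wide scatter (Spearman's rho 0.446), from *Aurka* at -0.68 to *Cenpf* at 0.55 and *Top2a* at 0.62.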

How the data were processed

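The cells, E14 WT and *Tet1/2* DKO, were FACS-sorted, and total RNA with ERCC spike-in was depleted of ribosomal RNA and sequenced. Per the labels and the submitters' processing notes, which name cutadapt 2.4, STAR 2.7.3a, StringTie 2.0 and mm10, the deposited TPM were estimated per gene in each library. TPM keep no count of reads, and the depth of each library was not used here, so no counting interval is given. TPM entries of the same identifier were summed. The spike-in factor of a library was the median ratio of the study's normalized table to its deposited TPM over the first 1999 entries of that table, at a deposited TPM of at least 1.

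Genes entered the tests if their spike-in normalized TPM averaged 1 or more (18232 genes, all 43 mitosis genes among them). One limma fit (limma 3.58.1 in R 4.3.3, trended variance, 7 residual degrees of freedom) was made on log2(TPM + 1) of the 7 groups of 2 libraries, with Benjamini-Hochberg adjustment over all genes and a threshold of 0.05. The same fit on the deposited TPM gave the second set of values. The script was tested on simulated data. Promoters were the RefSeq windows of GRCm38.p6, and exon lengths came from GENCODE M21. No promoter sequence was matched for *Aurkb*, *Incenp*, *Kif20a*, *Tpx2*, *Spc24*, *Ccna2*, *Cdc25c* and *Smc4*.

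The mitosis genes, the other gene lists and the tests were chosen with earlier results of these data known. Values of both WT libraries at 0 h and at 144 h were given for *Ccnb1*, *Cdk1*, *Plk1*, *Aurka*, *Aurkb*, *Bub1b*, *Bub3*, *Cdc20*, *Cenpa*, *Ndc80*, *Kif11*, *Top2a*, *Smc4*, *Prc1*, *Anln* and *Pttg1*, for the 3 genes with the lowest and the 3 with the highest log2 fold change at 144 h, and the values of both genotypes for genes called between them. Of each other list the 3 lowest and 3 highest could be named. Promoters were printed for the 4 lowest genes with TTTGAA, and *Top2a* was added after its values were seen.

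The study states that the time points of a biological replicate were processed in parallel. The labels do not say that the replicate numbers follow this, and it was assumed here that they pair the libraries within a genotype. The replicate differences correlated over genes at 0.222 to 0.341 between DKO times and at 0.0622 to 0.398 between WT times. A fit with the replicate number as a block within each genotype was therefore added to the alternatives, which also changed the scale, centring, filter, pseudocount, variance trend and libraries.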

Additional observations from a re-analysis of the deposited data

How the results depend on the processing

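The scale decided most calls. The spike-in normalized counts of called genes (1, 3 and 33 in WT cells at 24 h, 72 h and 144 h, 7 and 1 in DKO cells at 24 h and 72 h, 0 otherwise) became 19, 14, 15, 16 and 15 on deposited TPM, with 1, 2 and 2 between genotypes at 0 h, 24 h and 72 h, and 16, 15, 13, 15 and 14 with each library centred on its median, with 1 and 1 between genotypes at 24 h and 72 h. On deposited TPM the change at 144 h in WT cells was above 0 for 24 of the 43 genes, and among the 20 compared one by one it turned upward for *Bub1b* (0.056), *Ttk* (0.50), *Cenpa* (0.31), *Cenpf* (0.55), *Kif11* (0.082), *Top2a* (0.62), *Ndc80* (0.083), *Cdk1* (0.12), *Prc1* (0.42) and *Smc4* (0.37), and with centring for *Ttk* (0.32), *Cenpa* (0.12), *Cenpf* (0.36), *Top2a* (0.43), *Prc1* (0.23) and *Smc4* (0.19). Both rescalings take out the shift of all genes by construction. Of 352 values of single genes compared outside these rescalings 0 changed sign.

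Without the filter on low TPM the counts were 0 and 1 in WT cells at 24 h and 72 h and 0 in DKO cells at 72 h, without the variance trend 0 in WT cells at 24 h and 0 in DKO cells at 72 h, and with a minimum mean of 5 they were 6 in WT cells at 72 h and 11 in DKO cells at 24 h. Fitting only the groups compared gave 7 and 22 in WT cells at 24 h and 72 h, 29 for WT cells at 144 h against 72 h, and 0 in DKO cells at 24 h, beside 19.8%, 25.9%, 50% and 2.85% of all genes called lower. The cause was not tested. The replicate block within each genotype gave 7, 17 and 41 in WT cells at 24 h, 72 h and 144 h, 4 for 144 h against 72 h, and 21 and 7 in DKO cells, with 0 for the differences in response. A block across all libraries gave 6 in WT cells at 72 h. The correlations between the genotypes were negative at -0.431, -0.501 and -0.290 at 0 h, 24 h and 72 h, and a crossed pairing, chosen after seeing the data as were the block and the leave-one-out fits on deposited TPM, gave 0 calls between the genotypes.

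Leaving out 1 library at a time gave 0 to 0 calls in WT cells at 24 h, 0 to 1 at 72 h, 14 to 25 at 144 h, 0 to 28 in DKO cells at 24 h and 0 to 1 at 72 h, and on deposited TPM 11 to 13, 6 to 9, 6 to 10, 11 to 17 and 9 to 13. Between genotypes, between 144 h and 72 h and for the responses it gave 0 to 0, and 0 to 1 on deposited TPM between genotypes at 24 h. The lone library of a group is then assumed to vary like the others. With 2 libraries per group, differences of the size of the standard errors were not detectable.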
